A study of Mus musculus with 9 samples.

Results

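The genes of fatty acid uptake and oxidation are described here in mouse hearts after ischemia and reperfusion. The 39 genes were taken by symbol from a named list that runs from uptake at the cell surface to the regulators of the pathway, and all 39 were found among the 54532 gene identifiers of the count table. The hearts came from wild-type male C57BL/6J mice of 8 to 10 weeks. In the sham group (n = 3) a thread was passed around the left anterior descending coronary artery and not tied. In the MIRI group (myocardial ischemia/reperfusion injury, n = 3) the artery was tied for 30 min and then reopened for 24 h, and the mice were given saline. The GXNI group (n = 3) had the same operation and received Guanxinning injection, a preparation made from herbs, at 9 mL/kg through the tail vein. RNA was taken from heart tissue after the reperfusion, 1 library per mouse. The labels give the cell type as cardiomyocytes, but a tissue extract holds all the cells of the heart.

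The adult heart takes most of its energy from long-chain fatty acids. Lipoprotein lipase frees them from blood lipids, CD36 and the transport protein FATP1 carry them into the cell, and acyl-CoA synthetase ties them to coenzyme A. The carnitine shuttle then moves them into the mitochondrion, where each turn of beta-oxidation shortens the chain and hands electrons to the respiratory chain through the electron transfer flavoprotein. Malonyl-CoA brakes the entry step of the shuttle. The nuclear receptor PPARα, the estrogen-related receptors and their PGC-1 coactivators are known for switching on many of these genes together.

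The total count was between 17119454 and 22811295 per library, so that 3 counts stood for 0.132 to 0.175 CPM, a unit that scales each count to its library's total so that libraries can be compared. The 39 genes took between 1.32% and 2.49% of all counts. A principal component analysis of 13826 genes put 69.5% of the variance on its leading axis. There the library labelled MIRI 2 lay at -41.6, near the sham libraries (-56.2 to -48.0), while MIRI 1 and MIRI 3 lay at 57.2 and 77.3. The library labelled GXNI 3 lay at 87.5, beyond every MIRI library, while GXNI 1 and GXNI 2 lay at -40.1 and 17.5. The library nearest to GXNI 3 by rank correlation was MIRI 3 (rho = 0.986), and the one nearest to MIRI 2 was GXNI 1 (rho = 0.980). Groups follow the deposited labels throughout, and results are given with and without these 2 libraries. Since the libraries were singled out by their expression, a p-value without them describes the remaining libraries only.

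The levels of cell type markers differed between the libraries as well. Summed over 15 cardiomyocyte markers, the level was 79219 to 81272 CPM in the sham libraries. It was 54048, 80688 and 55638 CPM in MIRI 1 to 3, and 71107, 59931 and 53505 CPM in GXNI 1 to 3. The 14 neutrophil markers summed to 161 to 219 CPM in the sham libraries. They summed to 1230, 236 and 963 CPM in MIRI 1 to 3, and to 635, 710 and 966 CPM in GXNI 1 to 3. One of them, Lcn2, which other cells also make, carried much of this, with 125 to 151 CPM in sham, 388, 204 and 174 CPM in MIRI 1 to 3, and 575, 441 and 131 CPM in GXNI 1 to 3. The other 13, summed after these values were seen, were at 35.8 to 70.7 CPM in sham, 842, 32.0 and 789 CPM in MIRI 1 to 3, and 59.9, 269 and 834 CPM in GXNI 1 to 3. Without Lcn2, GXNI 1 thus lay within the sham range and MIRI 2 below it. Of the defining markers, Myh6 (cardiac myosin heavy chain) ranged from 6598 to 16460 CPM and Tnnt2 (cardiac troponin T) from 4755 to 7049 CPM. S100a8, a neutrophil gene, was at 9.23 to 12.1 CPM in the sham libraries, 201, 8.46 and 142 CPM in MIRI 1 to 3, and 13.4, 54.1 and 130 CPM in GXNI 1 to 3. S100a9 ran alike, from 6.89 CPM in sham 2 to 225 CPM in MIRI 1. The fat cell markers Adipoq and Plin1 were at or near 0, the highest value being 1.65 CPM for Plin1 in MIRI 2. The atrial gene Myl7 stayed at or below 1.76 CPM. The 8 atrial markers summed to 102 to 150 CPM in sham, 289, 228 and 705 CPM in MIRI 1 to 3, and 125, 142 and 760 CPM in GXNI 1 to 3. Most of the highest sums came from Nppa, a natriuretic peptide gene that stressed ventricle also expresses, at 38.3 to 83.8 CPM in sham and 256, 672 and 727 CPM in MIRI 1, MIRI 3 and GXNI 3. The mesothelial gene Msln reached 27.4 CPM in GXNI 1, and the 10 mesothelial markers summed to 99.3 CPM there and to 11.3 to 30.5 CPM elsewhere. Of these, Wt1 and Krt18 were above every sham library in all 6 ischemic libraries, Krt18 at low levels (0.535 to 0.913 CPM in sham and 1.86 to 5.07 CPM in the ischemic libraries). The sums of the other lists ranged from 445 to 930 CPM (macrophage), 1041 to 1765 CPM (endothelial), 1338 to 3294 CPM (fibroblast) and 16.5 to 40.8 CPM (fat cell). In whole tissue, fewer cardiomyocytes and less RNA per cardiomyocyte cannot be told apart. The part of cell composition in the results was not tested.

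**Figure D1:**
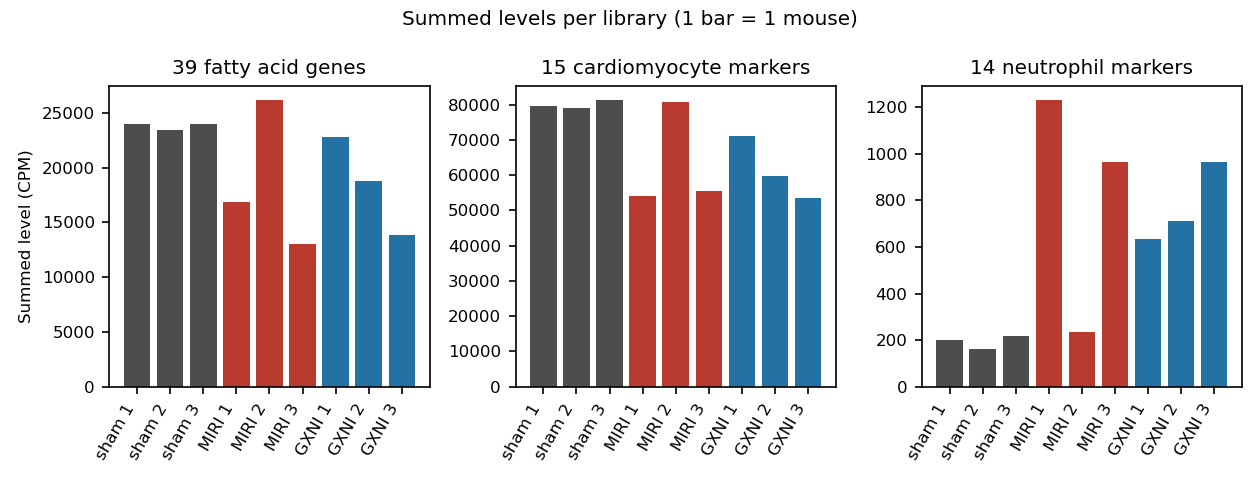
Summed level (CPM, vertical axes from 0, a different scale in each panel) of the 39 fatty acid genes, 15 cardiomyocyte markers and 14 neutrophil markers in each of the 9 libraries, 1 bar per mouse. The bars of MIRI 2 resemble those of the sham libraries, and the 39 genes are lowest in MIRI 3 (13033 CPM) and GXNI 3 (13884 CPM). Lcn2 makes up 575 of the 635 CPM of neutrophil markers in GXNI 1.

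In the sham hearts the highest levels per length were those of Fabp3 and Lpl. Per kilobase of exon, Fabp3, the binding protein that carries fatty acids through the cytosol, stood at 4061 ± 166 CPM per kb (SD, n = 3). Lpl, lipoprotein lipase, followed at 603 ± 44.5 CPM per kb. Acaa2 (489 ± 28.0), Acadl (472 ± 15.4) and Cd36 (471 ± 14.8) came next, 3 neighbours whose means lay within their spread. Etfa (319 ± 15.8) and Acadm (266 ± 11.6) stood below them. The regulators ranged from 43.2 ± 0.711 CPM per kb for Esrra, in the middle of the order, down to 4.29 ± 0.694 CPM per kb for Ppargc1b, near its end. Acaa2 encodes the mitochondrial thiolase of the last step of beta-oxidation, and Acadl and Acadm acyl-CoA dehydrogenases of its first step.

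Cpt1b, the muscle form of carnitine palmitoyltransferase 1, came last at 2.25 ± 0.765 CPM per kb, below the liver form Cpt1a at 9.33 ± 1.88 CPM per kb. This order is uncertain. Cpt1b lies on the minus strand of chromosome 15 (GRCm38, 89416405 to 89425863). Of the 50-base windows of the Cpt1b transcripts, 78.6% also occur in Gm44502, an overlapping gene on the same strand that had 0 counts in all 9 libraries, and reads in shared exons may have been left unassigned. The check was made after the values were seen. Other genes shared fewer windows with another gene, among them Etfb (44.8%), Fabp3 (37.3%), Acot2 (27.7%, mostly with Acot1), Acadvl (26.9%) and Acot1 (19.3%, mostly with Acot2), and the levels of these genes could include or miss such reads.

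The sham hearts differed among themselves in one set of genes. The 12 beta-oxidation enzymes had coefficients of variation between 1.17% and 7.25% over the 3 sham libraries. In 11 of the 39 genes it was above 20%, and 10 of these 11 were lowest in sham 2. Angptl4 in sham 2 was at 11.9% of the mean of sham 1 and sham 3, Ucp3 at 23.5%, Acot1 at 53.6%, Plin5 at 60.1%, and Slc27a1 and Ppargc1a at 64.7% each. Pdk4, a kinase that holds back glucose oxidation and is no member of the list, ran the same way, with 1905, 234 and 1292 CPM in sham 1 to 3. These values were looked up after the sham libraries had been seen to differ, and they widen the error of every comparison of these genes with sham.

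The promoters of these genes were searched for the binding half-site of nuclear receptors, since PPARα and the estrogen-related receptors are members of that family. RefSeq promoters (build GRCm38.p6, 250 bases before to 50 after the start) were held for 31 of the 39 genes, with 39 promoters. The letters AAGGTCA, as estrogen-related receptors are known to bind, were found on either strand in 2 of these 31 genes (6.45%, Acadm and Acacb), against 5.38% of the 27025 genes with a promoter. The shorter AGGTCA, which lies inside the longer motif, was in 8 of 31 genes (25.8%) against 18.1% of all. It was in 9 of the 39 promoters (23.1%) against 16.3% of all 32851. The shorter motif was chosen after the longer one had given few matches. The match in Acadm, 249 bases before the start, is not printed because its window ran past the end of the promoter, and that in Acacb lay after the start. The windows around the other matches upstream of a start are printed here to place the letters on the genome, with the match in capitals (TGACCT is AGGTCA read on the other strand).
Cd36, chr5:17836099-17836144, minus strand, match 228 bases before the start: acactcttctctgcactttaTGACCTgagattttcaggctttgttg
Cpt1a, chr19:3323187-3323232, plus strand, 94 bases before the start: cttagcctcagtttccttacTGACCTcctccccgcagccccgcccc
Acadvl, chr11:70015490-70015535, minus strand, 87 bases before the start: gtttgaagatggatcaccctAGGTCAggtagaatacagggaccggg
Echs1, chr7:140116479-140116524, minus strand, 83 bases before the start: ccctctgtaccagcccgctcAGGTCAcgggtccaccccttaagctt
Ucp3, chr7:100472822-100472867, plus strand, 149 bases before the start: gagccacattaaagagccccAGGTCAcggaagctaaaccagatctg
Ucp3, chr7:100472927-100472972, plus strand, 44 bases before the start: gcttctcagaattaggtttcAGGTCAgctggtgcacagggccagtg
Plin5, chr17:56117693-56117738, minus strand, 170 bases before the start: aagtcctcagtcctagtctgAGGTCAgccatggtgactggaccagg
A match of letters is a description of the window and not evidence of binding. The genes shown include Cd36, which had the smallest difference from sham in the MIRI group, and Ucp3, which had the lowest mean relative to sham.

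The first question was how ischemia and reperfusion changed these genes. Across the labelled groups no gene of the 39 passed the call, a fold change of at least 1.5 with an unadjusted p of at most 0.01 in the quasi-likelihood test of edgeR. In the same comparison 6.15% of the 14644 genes tested were called higher and 2.82% lower. Of the 39 genes, 37 had a mean below sham. Their median log2 fold change was -0.37, beside -0.00151 over all genes tested. One gene, Ucp3, had an unadjusted p below 0.05 in edgeR's test, as did 4149 of the 14644 genes tested. The smallest adjusted p among the 39 was 0.128 (edgeR, Benjamini-Hochberg). DESeq2 called 1 gene lower, Ucp3, where 2.72% of all genes were called lower. In one gene, Acot13, every MIRI library lay below every sham library, against 17.0% of all genes tested. This outcome turned on the library labelled MIRI 2. It lay above every sham library in 23 of the 39 genes, while MIRI 1 lay below every sham library in 35 and MIRI 3 in 38. The same counts over all genes were not made for single libraries, so these have no background beside them.

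Without MIRI 2, in 2 MIRI libraries against 3 sham libraries, 24 of the 39 genes were called lower and 1 higher. The background was then 13.3% called lower and 16.9% called higher. Genes said below to fall or rise in this setting passed the call, and 38 of the 39 had a mean below sham. MIRI 2 had been singled out because it lay near the sham libraries, and it was the highest of the 9 libraries in 22 of the 39 genes. The wider difference from sham without it thus follows in part from the choice. The median log2 fold change of the 39 was -0.75. Of them, 35 passed a Benjamini-Hochberg adjusted p of 0.05 in edgeR's test, as did 6554 of all 15207 genes tested. In 35 genes both MIRI libraries lay below every sham library, against 32.8% of all genes tested. The median level of the 39 genes was 64.9% of the sham mean in MIRI 1 and 54.3% in MIRI 3, and 111% in MIRI 2. Beside this, 8 of the 15 cardiomyocyte markers were called lower without MIRI 2 (median log2 fold change -0.64), and all 14 neutrophil markers were called higher. Of the other lists, 4 of 10 fibroblast markers were called lower and 1 higher (median -0.56), 3 of 12 endothelial (median 0.52) and 4 of 12 macrophage markers (median 0.09) higher, 4 of 9 mesothelial markers tested lower and 2 higher, and 3 of 6 atrial markers tested lower and 1 higher. As a share of the summed cardiomyocyte markers, a measure added after the values were seen, the 39 genes made up 29.5% to 30.1% in the sham libraries, 31.3%, 32.4% and 23.4% in MIRI 1 to 3, and 32.1%, 31.4% and 26.0% in GXNI 1 to 3. On that scale MIRI 1 was not below sham, and MIRI 3 and GXNI 3 were.

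**Figure D2:**
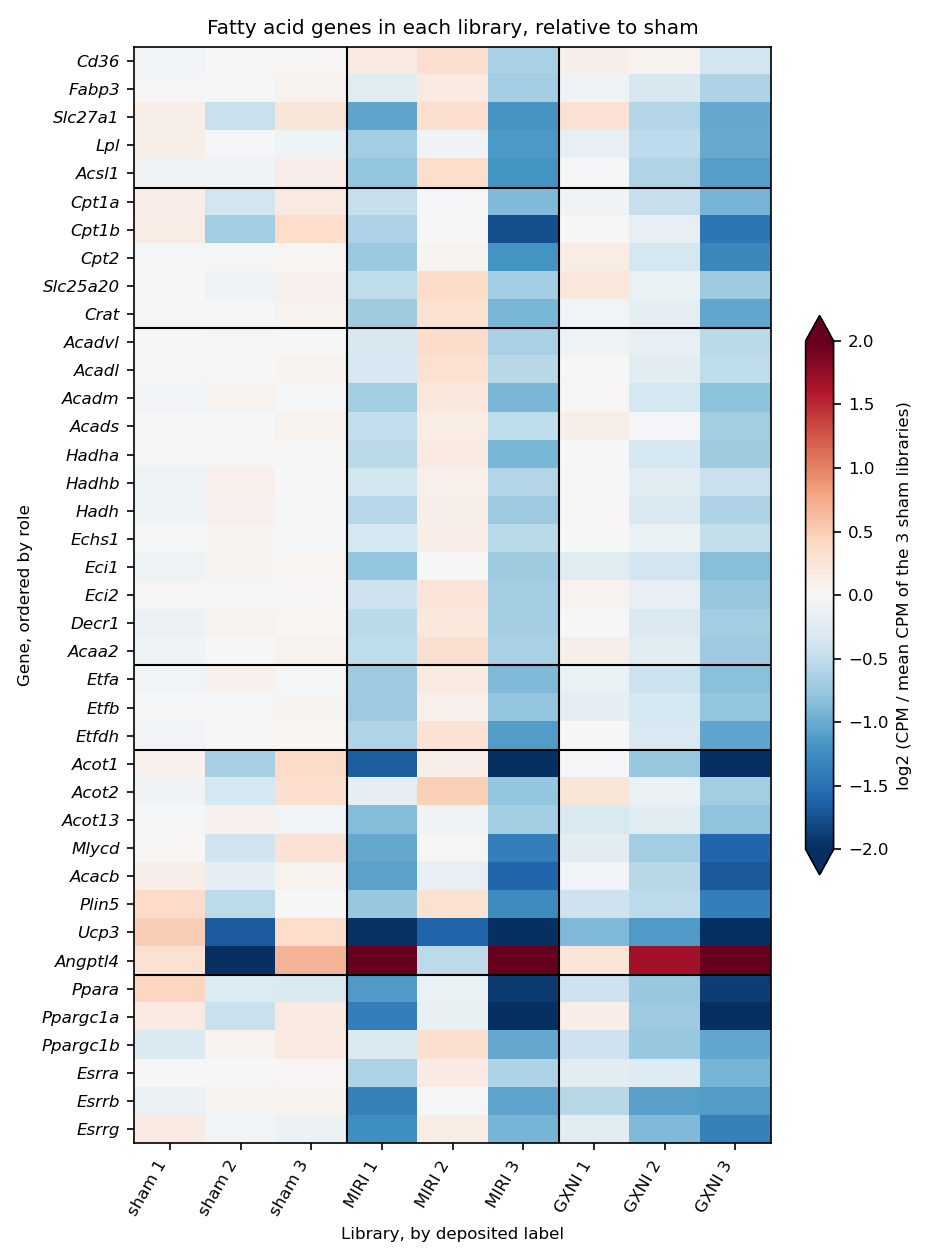
Level of each of the 39 genes (rows, by role, divided by lines) in each of the 9 libraries (columns), as log2 of the CPM over the mean CPM of the 3 sham libraries, with colours capped at -2 and 2. Blue is below and red above the sham mean: MIRI 3 and GXNI 3 lie below every sham library in 38 genes each, MIRI 2 above every sham library in 23, and Angptl4 runs opposite to the rest. No count over all genes was made for single libraries.

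Of the 5 uptake genes, 3 fell without MIRI 2. Lpl was at 6847, 6166 and 5954 CPM in sham 1 to 3, 3893, 6024 and 2852 CPM in MIRI 1 to 3, and 5628, 4383 and 3145 CPM in GXNI 1 to 3. MIRI 2 alone of the MIRI libraries reached the sham range. The log2 fold change of MIRI against sham was -0.56 ± 0.30 (SE), and -0.90 ± 0.16 without MIRI 2 (adjusted p = 0.00366, edgeR's quasi-likelihood test). Acsl1, the long-chain acyl-CoA synthetase of heart, fell to 51.1% of sham without MIRI 2, and Slc27a1, which encodes FATP1, to 46.4%. Cd36 stood apart from these. It was at 1629, 1717 and 1724 CPM in the sham libraries, 1893, 2128 and 1073 CPM in MIRI 1 to 3, and 1842, 1783 and 1309 CPM in GXNI 1 to 3. MIRI 1 lay above every sham library and MIRI 3 below, so the groups overlapped in each setting (88.2% of sham without MIRI 2, adjusted p = 0.535, edgeR). Fabp3 was at 3237 to 3496 CPM in sham and at 2813, 3784 and 2065 CPM in MIRI 1 to 3, or 73.3% of sham without MIRI 2, and passed neither the fold nor the p of the call. In that setting 4 of the 5 uptake genes, all but Cd36, passed an adjusted p of 0.05 in edgeR's test.

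In the carnitine shuttle 3 of 5 genes fell without MIRI 2. Cpt2, the transferase of the inner mitochondrial membrane, was at 206, 206 and 215 CPM in the sham libraries, 125, 217 and 91.3 CPM in MIRI 1 to 3, and 231, 163 and 85.9 CPM in GXNI 1 to 3. MIRI 2 and GXNI 1 lay above every sham library and the other 4 below. Its log2 fold change was -0.52 ± 0.30 with all libraries and -0.94 ± 0.15 without MIRI 2 (adjusted p = 0.00268, edgeR). Crat, carnitine acetyltransferase, fell to 57.5% of sham and Slc25a20, the carnitine-acylcarnitine carrier, to 66.1% in the same setting. Cpt1a, at 54.9 to 80.9 CPM in sham and 52.1, 69.2 and 38.7 CPM in MIRI 1 to 3, passed neither the fold nor the p on all libraries, and missed the p of 0.01 without MIRI 2. Cpt1b, with 48 to 181 counts per library over the 9 libraries, did not pass either, within the limits of its counting.

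The 12 beta-oxidation enzymes lay in a narrow band, at 57.7% to 74.1% of sham without MIRI 2. All 12 passed an adjusted p of 0.05 in edgeR's test in that setting, as did 6554 of all 15207 genes tested. Of the 12, 5 also passed the fold and were called lower. Acadm, the medium-chain acyl-CoA dehydrogenase, was at 1008, 1094 and 1024 CPM in sham 1 to 3, 644, 1202 and 553 CPM in MIRI 1 to 3, and 1054, 817 and 588 CPM in GXNI 1 to 3. MIRI 2 was the highest of the 9 libraries and MIRI 3 the lowest. Without MIRI 2 its log2 fold change was -0.79 ± 0.12 (adjusted p = 0.00176, edgeR). The others called lower were Eci1 (60.2% of sham) and Decr1 (65.9%), which rearrange double bonds, Hadha (61.3%), the alpha subunit of the trifunctional protein, and Hadh (63.9%), the short-chain hydroxyacyl-CoA dehydrogenase. Those past the adjusted p but not the fold were Acaa2 (67.3%), Eci2 (69.0%), Acads (71.0%), Acadvl (72.0%), Hadhb (72.5%), Echs1 (74.1%) and Acadl (74.1%). The alpha and beta subunits of the trifunctional protein thus lay on either side of the call, at 61.3% and 72.5% of sham.

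All 3 genes of electron transfer fell without MIRI 2. Etfa and Etfb encode the subunits of the electron transfer flavoprotein and Etfdh the oxidoreductase that passes its electrons to ubiquinone. Etfa was at 564, 618 and 572 CPM in sham, 354, 663 and 318 CPM in MIRI 1 to 3, and 536, 433 and 328 CPM in GXNI 1 to 3, and MIRI 2 was the only ischemic library within or above the sham range. The 3 genes were at 57.7%, 59.6% and 56.3% of sham in the order named, with adjusted p between 0.00148 and 0.00570 (edgeR, Benjamini-Hochberg).

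The thioesterases, malonyl-CoA enzymes and lipid storage genes spread far more widely, from 15.6% to 574% of sham without MIRI 2. Acot1, a cytosolic acyl-CoA thioesterase, was at 30.2, 18.0 and 36.9 CPM in sham, 9.02, 30.8 and 4.07 CPM in MIRI 1 to 3, and 27.5, 16.8 and 4.41 CPM in GXNI 1 to 3. It fell by 2.11 ± 0.41 on the log2 scale without MIRI 2 (adjusted p = 0.00564, edgeR). Acot1 lies on the plus strand of chromosome 12 (GRCm38, 84009490 to 84018371), beside its mitochondrial relative Acot2 (83987861 to 83993873). Acot2 did not pass, with 48.8 to 79.1 CPM in sham and 54.6, 87.0 and 36.3 CPM in MIRI 1 to 3. Acot13 was at 176, 192 and 175 CPM in sham, 99.3, 172 and 111 CPM in MIRI 1 to 3, and 146, 154 and 103 CPM in GXNI 1 to 3. It was the one gene whose 6 ischemic libraries all lay below every sham library, although MIRI 2 did so by a small margin.

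The enzymes that make and remove malonyl-CoA both fell without MIRI 2. Acacb, the acetyl-CoA carboxylase that makes it at the mitochondrion, was at 443, 356 and 429 CPM in sham, 196, 367 and 137 CPM in MIRI 1 to 3, and 396, 279 and 128 CPM in GXNI 1 to 3. Mlycd, the decarboxylase that removes it, was at 149, 111 and 179 CPM in sham, 71.8, 148 and 56.6 CPM in MIRI 1 to 3, and 127, 90.1 and 48.7 CPM in GXNI 1 to 3. In both genes MIRI 3 and GXNI 3 were the lowest 2 libraries. Acacb fell to 40.7% of sham without MIRI 2 (adjusted p = 0.00165) and Mlycd to 44.1% (adjusted p = 0.00436), both by edgeR's quasi-likelihood test. Plin5, which coats lipid droplets beside mitochondria, fell to 50.7%.

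Ucp3, an uncoupling protein family member, and Angptl4, a secreted inhibitor of lipoprotein lipase, lay farthest from sham by fold and had the widest sham spread. Ucp3 was at 170, 38.0 and 153 CPM in sham, 30.7, 39.7 and 6.67 CPM in MIRI 1 to 3, and 65.5, 54.8 and 13.8 CPM in GXNI 1 to 3. Sham 2 lay below MIRI 2. The log2 fold change of MIRI against sham was -2.22 ± 0.76 with all libraries (adjusted p = 0.128, edgeR). Without MIRI 2 the gene was at 15.6% of sham, the lowest of the 39. It passed the fold there but was not called, since its unadjusted p in edgeR's test was above 0.01. Angptl4 was at 23.7, 3.22 and 30.6 CPM in sham, 85.7, 13.3 and 133 CPM in MIRI 1 to 3, and 22.6, 61.7 and 137 CPM in GXNI 1 to 3. Its highest libraries were GXNI 3, MIRI 3 and MIRI 1, the lowest libraries for most of the other genes. It rose without MIRI 2, by 2.52 ± 0.69 on the log2 scale (adjusted p = 0.0229, edgeR), and was the only gene of the 39 called higher. With all libraries the log2 fold change was 2.02 ± 0.96 and was not called.

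**Figure D3:**
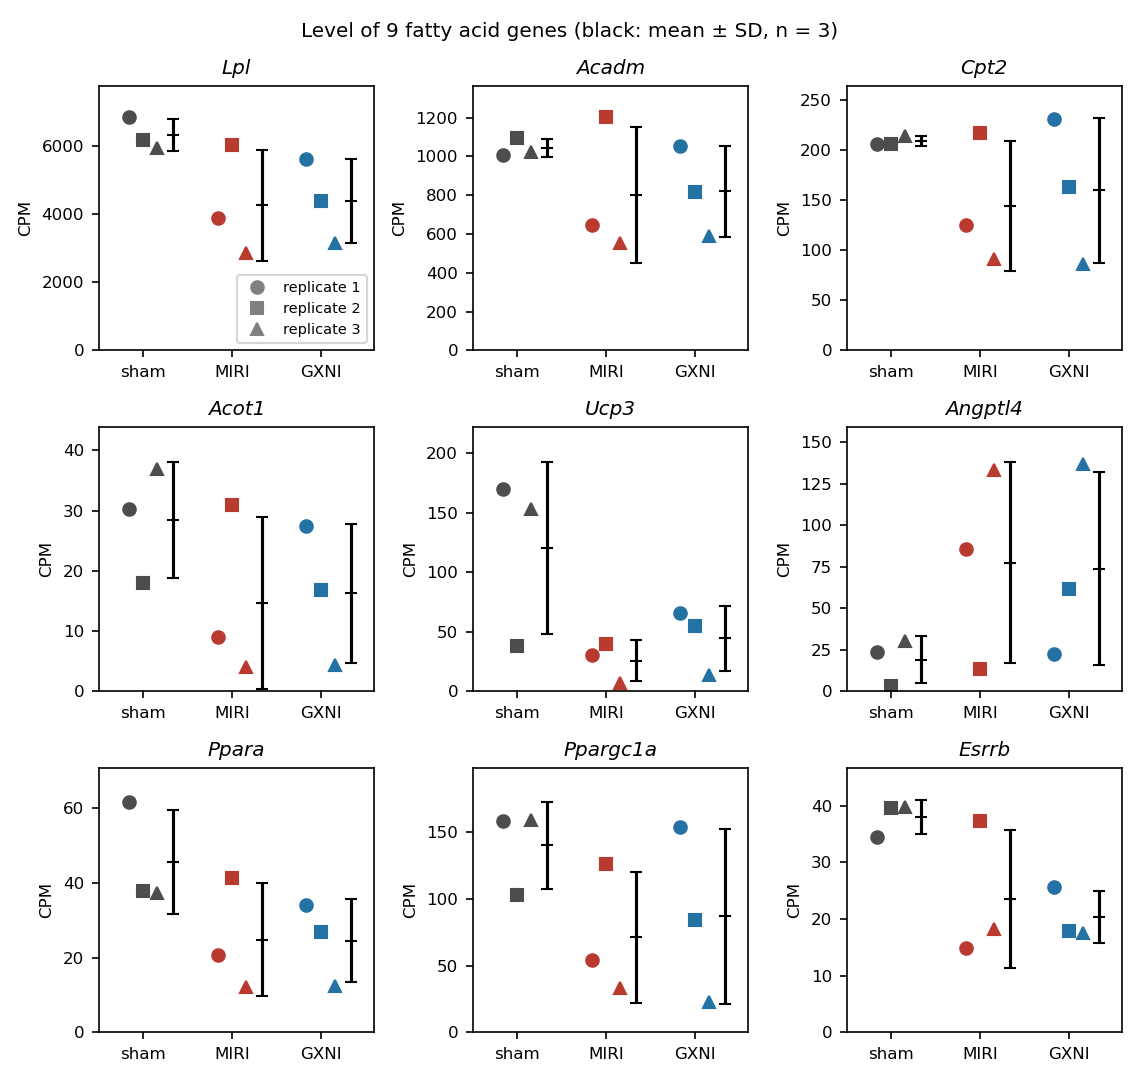
Level (CPM, vertical axes from 0) of 9 of the 39 genes, chosen after their values were seen, in the sham, MIRI and GXNI groups, with 1 symbol per mouse by replicate number and the mean ± SD (n = 3) in black. The square of MIRI 2 lies near or within the sham points (for Ucp3 near sham 2 only), and in each panel the triangle of GXNI 3 lies near that of MIRI 3.

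Of the 6 regulators, 5 fell without MIRI 2. Ppara, which encodes PPARα, was at 61.8, 37.8 and 37.3 CPM in sham, 20.8, 41.5 and 12.1 CPM in MIRI 1 to 3, and 34.2, 27.0 and 12.4 CPM in GXNI 1 to 3. Ppargc1a, which encodes PGC-1α, was at 159, 103 and 159 CPM in sham, 54.4, 127 and 33.0 CPM in MIRI 1 to 3, and 154, 84.5 and 22.8 CPM in GXNI 1 to 3. In both, MIRI 3 and GXNI 3 were far below the sham range and MIRI 2 within it. Without MIRI 2 the log2 fold change was -1.68 ± 0.28 for Ppargc1a (adjusted p = 0.00296) and -1.47 ± 0.31 for Ppara (adjusted p = 0.00798), by edgeR's test. With all libraries they were at 51.2% and 54.7% of sham and were not called.

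The estrogen-related receptors are nuclear receptors of energy metabolism, and Esrrb lies on chromosome 12 from 86361117 to 86521628 on the plus strand (GRCm38). Esrrb was at 34.5, 39.6 and 39.7 CPM in sham, 14.8, 37.4 and 18.2 CPM in MIRI 1 to 3, and 25.7, 17.9 and 17.6 CPM in GXNI 1 to 3. Esrrg was at 45.0, 38.6 and 37.3 CPM in sham, 17.2, 44.7 and 21.0 CPM in MIRI 1 to 3, and 34.3, 21.9 and 15.7 CPM in GXNI 1 to 3. For both, every ischemic library but MIRI 2 lay below every sham library. Without MIRI 2, the log2 fold change was -1.19 ± 0.14 for Esrrb (adjusted p = 0.000729), -1.07 ± 0.14 for Esrrg (adjusted p = 0.00133) and -0.61 ± 0.10 for Esrra (adjusted p = 0.00273) in edgeR's fit. Ppargc1b, the other PGC-1 coactivator, was at 65.6% of sham and was not called. As a share of the summed cardiomyocyte markers, the 6 regulators made up 0.536% to 0.630% in sham, 0.453%, 0.601% and 0.389% in MIRI 1 to 3, and 0.597%, 0.534% and 0.330% in GXNI 1 to 3. The values of MIRI 1, MIRI 3 and GXNI 3 were below every sham library on this scale, and that of GXNI 2 was barely so.

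The second question was whether GXNI altered these genes in the injured heart. Against MIRI as labelled, no gene of the 39 was called, by edgeR or by DESeq2. None had an unadjusted p below 0.05 in edgeR's test, where 47 of all 14762 genes tested did. Over all genes tested, 0.0% were called higher and 0.0203% lower. The 39 genes ranged from 71.4% of MIRI (Ppargc1b) to 173% (Ucp3), with 23 below MIRI and a median log2 fold change of -0.02, and the adjusted p was 1 for each (edgeR, Benjamini-Hochberg). The spread within the groups was wide. Acadm was at 800 ± 351 CPM in MIRI and 820 ± 233 CPM in GXNI, and Lpl at 4256 ± 1617 and 4385 ± 1241 CPM (SD, n = 3 each). For Lpl the log2 fold change was 0.04 ± 0.37 (SE) and for Ppargc1a 0.29 ± 0.75. The values leave room for a difference of either sign.

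Within the GXNI group the 3 libraries covered most of the range between sham and MIRI 3. GXNI 1 had a median of 96.9% of the sham mean over the 39 genes, GXNI 2 78.7% and GXNI 3 55.4%. GXNI 1 lay below every sham library in 13 genes, GXNI 2 in 32 and GXNI 3 in 38, again with no count over all genes beside them. The lowest library of the 9 was MIRI 3 for 20 genes and GXNI 3 for 16. The summed 13 neutrophil markers other than Lcn2 ran opposite, at 59.9, 269 and 834 CPM in GXNI 1 to 3. Lcn2 itself and the sum of the cardiomyocyte markers, though not every one of these markers, were lowest of these 3 libraries in GXNI 3.

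Without both MIRI 2 and GXNI 3, in 2 libraries against 2, 38 of the 39 genes had a mean above MIRI and the median log2 fold change was 0.54. In 33 genes both GXNI libraries lay above both MIRI libraries, against 27.5% of all genes tested. Acot1 (log2 fold change 1.77 ± 0.45, adjusted p = 0.190) and Ppargc1a (1.46 ± 0.38, adjusted p = 0.196) were called higher by edgeR's test and none lower, where 1.52% of all genes were called higher and 3.47% lower. No gene passed an adjusted p of 0.05. In the same libraries Angptl4 was at 38.9% of MIRI, the one gene of the 39 below it, and was not called. Ppargc1b (103%) and Fabp3 (120%) were among those least apart. Leaving out these 2 libraries takes the highest MIRI and the lowest GXNI values of most of the 39 genes away, so the direction follows in part from the choice. The cardiomyocyte markers had a median log2 fold change of 0.39 in this setting with 0 of 15 called, and 5 of 14 neutrophil markers, 2 of 12 macrophage markers and 1 of 10 fibroblast markers were called lower. In the same setting 3 of 7 mesothelial markers tested were called higher, and of 5 atrial markers tested 1 was called higher and 1 lower. Leaving out only MIRI 2 gave a median of 0.36 for the 39 genes, and leaving out only GXNI 3 gave 0.17, with no gene called in either.

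**Figure D4:**
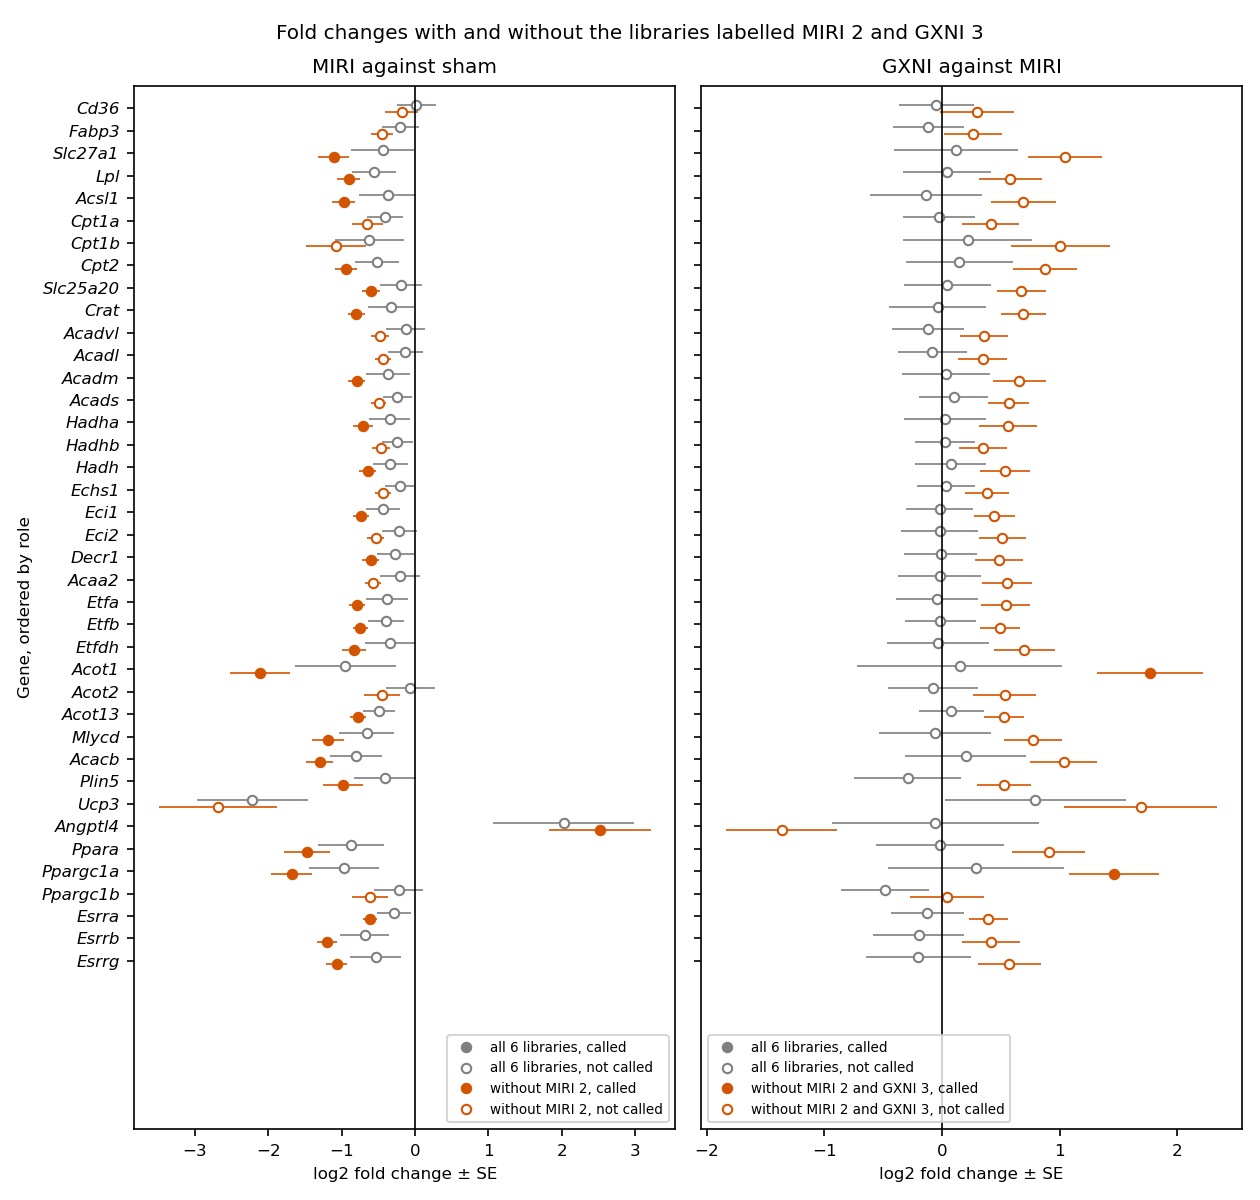
Log2 fold change ± SE of the 39 genes from edgeR, for MIRI against sham (left) and GXNI against MIRI (right), with all 6 libraries in grey and without the libraries named in the legend in orange. Filled points passed a fold change of 1.5 and an unadjusted p of 0.01: none in grey, 25 in orange on the left, and Acot1 and Ppargc1a in orange on the right.

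Against sham, the GXNI group had 1 gene called lower, Esrrb, where 1.54% of all genes tested were called lower and 2.67% higher. Its level was 37.96 ± 2.96 CPM in sham and 20.4 ± 4.61 CPM in GXNI (SD, n = 3), and the groups did not overlap. The log2 fold change was -0.88 ± 0.19 (adjusted p = 0.219, edgeR's quasi-likelihood test). The call was lost without sham 2 (log2 fold change -0.85), sham 3 (-0.85) or GXNI 2 (-0.79), where the unadjusted p lay just above 0.01. It was also lost, further from that threshold, with all 9 libraries in 1 fit (-0.89). It held without GXNI 3, at -0.79 and again as the 1 gene called lower, where 1.46% of all genes were called lower and 2.11% higher. DESeq2 called Esrrb and Ppargc1b lower, where it called 1.46% of all genes lower.

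The median log2 fold change of the 39 genes was -0.38 for GXNI against sham and -0.15 without GXNI 3. In 13 genes every GXNI library lay below every sham library, against 15.9% of all genes tested. These were all the regulators but Ppargc1a, with Fabp3, Lpl, Crat, Acadvl, Eci1, Etfa, Etfb and Acot13. Without GXNI 1, 6 genes were called lower (Lpl, Acsl1, Etfa, Ppargc1b, Esrrb and Esrrg), where 7.08% of all genes were. The MIRI and GXNI comparisons share the same sham libraries.

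The comparison of all 6 ischemic libraries with the 3 sham libraries does not depend on which of the 6 received GXNI. No gene of the 39 was called, where 2.85% of all genes tested were called lower and 5.52% higher. Of the 39 genes 38 had a mean below sham, and the median log2 fold change was -0.38. An unadjusted p below 0.05 in edgeR's test was reached by 6 of the 39 and by 4488 of all 15207 genes tested. The lowest p was that of Esrrb (log2 fold change -0.78 ± 0.27, adjusted p = 0.108, edgeR). DESeq2 called Ucp3 and Esrrb lower, where 2.31% of all genes were called lower. In 12 genes 5 of the 6 ischemic libraries lay below every sham library and in 19 genes 4 of the 6 did. The shares of all genes with 5 or 4 of the 6 were not counted, so these numbers have no background. Acot13 was the only gene with all 6, against 8.89% of all genes tested. Without MIRI 2, Esrrb (log2 fold change -1.01, adjusted p = 0.0375) and Esrrg (-0.87, adjusted p = 0.0482) were called lower by edgeR, where 4.76% of all genes were.

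A list of 59 other genes of lipid and energy metabolism was set beside the 39, and 57 of them were tested. In MIRI against sham 2 were called higher and 4 lower, in GXNI against MIRI none, in GXNI against sham 2 lower, and over all ischemic libraries 1 higher and 4 lower. Without MIRI 2 the counts for MIRI against sham were 7 higher (12.3% of the 57) and 20 lower (35.1%), where 16.9% and 13.3% of all genes tested were. With all libraries the 2 and 4 were 3.51% and 7.02% of the 57, against 6.15% and 2.82% of all genes. None of these calls with all libraries passed an adjusted p of 0.05 in edgeR's test. Ehhadh, the bifunctional enzyme of peroxisomal beta-oxidation, was at 20.5, 12.4 and 20.1 CPM in sham, 5.63, 9.75 and 3.85 CPM in MIRI 1 to 3, and 8.49, 7.93 and 2.61 CPM in GXNI 1 to 3, and every ischemic library lay below every sham library. It fell by 1.45 ± 0.37 on the log2 scale in MIRI (adjusted p = 0.0890, edgeR). Acad10, an acyl-CoA dehydrogenase family member, fell by 1.05, and Slc22a5, the carnitine transporter of the plasma membrane, fell by 0.90. Rxra, the partner receptor of PPARα, fell by 0.68. These 4 were named because they were called and their groups did not overlap, so that MIRI 2 lay below every sham library in each.

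Acot9, a mitochondrial thioesterase, ran the other way, at 22.1, 21.7 and 23.5 CPM in sham, 51.9, 31.1 and 54.9 CPM in MIRI 1 to 3, and 25.5, 37.5 and 51.3 CPM in GXNI 1 to 3. It rose by 1.05 ± 0.22 in MIRI (adjusted p = 0.0759, edgeR), and Dgat1, which makes triglyceride, by 0.59. Its counterpart Dgat2 fell by 1.06 in GXNI against sham, and Perm1, a muscle regulator of the estrogen-related receptor pathway, fell by 1.04 (Perm1 was chosen after its values were seen). Dgat2 was at 408 to 449 CPM in sham, 147, 329 and 134 CPM in MIRI 1 to 3, and 258, 227 and 127 CPM in GXNI 1 to 3, and the groups did not overlap. Pdk4 and Pnpla2, the triglyceride lipase of lipid droplets, were called in none of the 4 comparisons. Their log2 fold changes in MIRI against sham were -1.06 ± 0.67 and -0.08 ± 0.26.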

How the data were processed

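Per the labels and the study's methods, the authors extracted RNA from heart tissue with TRIzol, aligned the reads to the mouse genome (mm10) with HISAT2 and counted them per gene with featureCounts from Subread. DESeq2 was the authors' test. Versions, annotation release and strand setting are not given in the sources used here, so reads of overlapping genes, antisense partners included, could not be told apart. The deposited counts are whole numbers without normalization, 1 column per mouse, and no columns were left unused. Ages, times and dose come from the methods. Symbols and exon lengths were those of GENCODE M21 for 54409 of 54532 identifiers (123 had none).

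Each comparison was fitted on its own libraries with edgeR 4.0.16 in R 4.3.3 (TMM, default filter on low counts, quasi-likelihood F test, no covariates), and genes were called at a fold change of 1.5 and an unadjusted p of 0.01, the study's thresholds. Adjusted p-values are Benjamini-Hochberg values over all genes tested. The SE is the size of the log2 fold change over the square root of F. CPM used TMM factors over 9 libraries. Alternatives were DESeq2 1.42.0 (Wald test), RLE normalization, no filter, mitochondrial genes left out, 1 fit of 9 libraries, a replicate block, an adjusted p of 0.05 and leaving out libraries. The 39 genes and all lists were chosen with earlier results of these data known. Text names all 39, chosen other pathway genes that were called and did not overlap between groups, Pdk4, Pnpla2 and Slc22a5, and 8 markers. Perm1, Lcn2, Nppa and Wt1 were named after their values were seen, and 1 gene of the naming rule is not reported here. On simulated counts for MIRI against sham with 200 genes changed by 1 log2 unit, edgeR recovered 192 among 14586 genes and called 0.688% of the unchanged ones, and DESeq2 185 among 24788 genes. The simulated counts had the same fixed spread for every gene around the sham means, and no library that stood apart from its group. This recovery therefore checks the code and does not give the power of the tests in the real libraries. Over all pairs, within and across groups, no 2 libraries agreed within sampling noise (smallest chi-square per degree of freedom 14.5). Nothing in the labels says how mice were housed or batched.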

Additional observations from a re-analysis of the deposited data

How the results depend on the processing

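Among the 39 genes depth was lowest for Cpt1b, with 48 to 181 counts per library. RLE normalization and leaving out mitochondrial genes changed no count of calls by over 1.5 times. For MIRI against sham DESeq2 called 1491 genes up and 760 down (main counts 900 and 413), and in the same order 4 and 7 in GXNI against MIRI (0 and 3), 994 and 407 in GXNI against sham (392 and 226) and 1519 and 677 over all ischemic libraries (840 and 434), and of the 39 genes 1, 0, 2 and 2 lower. Without the filter on low counts the counts were 1603 and 803, 4 and 6, 999 and 426, and 656 lower over all ischemic libraries, with 1 (Ucp3), 0, 2 and 2 of the 39 lower. With all 9 libraries in 1 fit they were 535 and 265, then 1 and 8, then 142 lower in GXNI against sham, where none (0) of the 39 was called. At an adjusted p of 0.05 they were 2 and 0, then 0 and 0, 0 and 0, and 4 and 5, with 0 of the 39 in each. The cause of these shifts was not tested.

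The labels do not say whether libraries of the same replicate number belong together. With each group's mean taken out, same-numbered libraries correlated at -0.112, 0.0876 and 0.151 in MIRI and sham. The values were -0.504, 0.14 and 0.755 in GXNI and MIRI, and 0.099, -0.0878 and 0.14 in GXNI and sham. With 3 values per comparison, and MIRI 2 and GXNI 3 apart from their groups, they cannot decide whether the numbers pair the samples. With the number as a replicate block, 1 of the 39 was called higher in MIRI against sham (Angptl4), where 698 of all genes were called higher and 367 lower. In GXNI against MIRI 1 was called higher (Ucp3), where 2 of all genes were called higher and 1 lower. In GXNI against sham 3 were called lower (Ppara, Esrrb, Esrrg), where 342 of all genes were called higher and 231 lower. Over all ischemic libraries 1 was called lower (Ppara), and the count over all genes in that setting is not given here.

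Leaving out libraries, the 39 genes had 0 to 1 called higher and 0 to 24 lower in MIRI against sham (all genes 340 to 2571 higher and 174 to 2021 lower), the upper ends without MIRI 2. Without sham 2, Ucp3 was called lower there. In GXNI against MIRI it was 0 to 2 higher (all genes 0 to 228 higher and 0 to 520 lower), with a median log2 fold change of the 39 from -0.22 (without GXNI 1) to 0.54 (without MIRI 2 and GXNI 3). In GXNI against sham it was 0 to 6 lower (all genes 83 to 1603 and 90 to 1062), the upper ends without GXNI 1. Over all ischemic libraries it was 0 to 2 lower (all genes 254 to 1466 and 209 to 858).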
